A study of Mus musculus with 6 samples.

Results

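The major urinary proteins are small secreted lipocalins, barrel-shaped carriers that hold volatile pheromones, and they were described here through 6 genes, Mup1, Mup2, Mup3, Mup7, Mup20 and Mup21, taken by symbol from the 48 rows whose symbol starts with Mup among the 40481 genes of the deposited count table. Hepatocytes make most of these proteins, release them into plasma, and the kidney passes them into urine, where they carry scent and bind signals between mice. Their transcription in liver is known to depend on pulsatile growth hormone acting through STAT5, and on androgens, thyroid hormone and glucocorticoids, so that adult males express more of them than females. Mup20 encodes darcin, a male pheromone that attracts females, Mup1 has been studied as a circulating factor in glucose metabolism, and Mup3 belongs to the more diverged genes at the edge of the cluster.

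Liver RNA was sequenced from male C57BL/6 mice that all carried floxed Mttp alleles and a Villin Cre ER T2 transgene. The Villin promoter drives tamoxifen-activated Cre in the intestinal epithelium. The methods give an age of 12 to 16 weeks for the mice that entered the diet described below, and none for collection. Mttp encodes the microsomal triglyceride transfer protein, which loads lipid onto apolipoprotein B. Mttp-IKO mice received tamoxifen at 50 ug/g/day for 5 days, and control littermates, named wild type in the labels, received vehicle, so deletion and tamoxifen cannot be told apart. From 3 weeks later all mice ate a methionine/choline-deficient (MCD) diet for 3 weeks, and they were fasted for 4 h before collection (4 to 6 h in the methods). The RNA of 3 to 4 mice was combined for each of the 3 control and 3 Mttp-IKO pools, with 12 livers named in the design text, so the spread is between pools and not between mice.

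The pools held 25271585 to 36238734 reads on genes. Liver Mttp, whose deletion was directed to the intestine and which therefore checks no label, was 90.4 to 186 CPM (reads per 1000000 reads of the pool, its total scaled by TMM as for every CPM here unless called unscaled) in controls and 129 to 161 in Mttp-IKO pools. Mttp-IKO pool 3 stood apart, since small RNA genes took 0.290% of its reads and 1.92 to 3.51% in each other pool. It also had 1.81% of its protein-coding reads on genes of 300 to 1000 nt (Mup rows left out) against 3.97 to 4.23%. The gene lengths given for the 6 members were 677 to 1584 nt. Control pool 2 held RNA of striated muscle, with 369 CPM of Acta1, the skeletal muscle actin, against 40.5 in control pool 1 and at most 0.419 in the other 4 pools.

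All 6 genes lie on the minus strand of chromosome 4 (GRCm38), but not side by side. Mup7 (chr4:60066469-60070475), Mup2 (chr4:60135932-60154289) and Mup1 (chr4:60498012-60501960) sit in the central array of near-identical copies. Mup20 (chr4:62050234-62054158), Mup3 (chr4:62083476-62087342) and Mup21 (chr4:62147932-62150863) are neighbours at the far end. Because the counts rest on uniquely aligned reads, what can be counted of each gene depends on how its sequence differs from its relatives. A stretch of 60 coding bases is printed for each member as an example, and members identical in it can differ elsewhere. It is the gap-free stretch with the most differences between Mup20 and Mup7, it lies within 1 exon, and capitals mark bases that differ from Mup7.
Mup7 (chr4:60069777-60069836): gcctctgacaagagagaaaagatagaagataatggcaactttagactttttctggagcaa
Mup1 (chr4:60501326-60501385): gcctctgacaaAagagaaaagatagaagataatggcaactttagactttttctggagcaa
Mup2 (chr4:60139263-60139322): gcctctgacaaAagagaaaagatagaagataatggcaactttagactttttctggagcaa
Mup20 (chr4:62053524-62053583): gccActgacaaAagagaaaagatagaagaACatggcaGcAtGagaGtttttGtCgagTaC
Mup3 (chr4:62086844-62086903): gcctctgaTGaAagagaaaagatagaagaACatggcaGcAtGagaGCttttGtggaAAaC
Mup21 (chr4:62150239-62150298): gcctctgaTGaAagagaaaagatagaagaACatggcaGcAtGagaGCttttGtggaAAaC

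Mup1 and Mup2 were identical over this stretch and differed from Mup7 at 1 base, whereas Mup20 differed from Mup7 at 12 bases. Mup3 and Mup21 were also identical here and differed from Mup7 at 14 bases. Over the whole coding sequence, Mup1 and Mup2 were 99.4% identical, with 3 substitutions in 540 bases. Mup1 differed from Mup7 by 6 substitutions, and Mup12, a row outside the 6 members, differed from Mup1 by 2. Mup3 and Mup21 were 94.7% identical, and Mup20 was at most 91.3% identical to any Mup gene with a complete coding sequence in GENCODE M21.

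The share of a gene's own sequence that no other gene shares was counted over 141767 transcripts as stretches of 50 bases, the read length not being given in the sources used here. For Mup3 86.7% and for Mup21 80.7% of such stretches belonged to that gene alone. The share was 49.5% for Mup20, 38.4% for Mup1, 21.8% for Mup2 and 13.3% for Mup7. For Mup20 the loss came mainly from 1 row, the pseudogene Mup-ps19, which held 48.0% of the Mup20 stretches, while the next row held 3.07%. Counts of Mup1, Mup2 and Mup7 are therefore uncertain lower limits, and the Mup20 and Mup-ps19 rows are not independent.

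Of the 6 genes, Mup20 was the 1 whose genotypes separated, without passing the test. Its level was 432, 390 and 466 CPM (scaled by TMM) in control pools 1 to 3, and 74.7, 68.2 and 261 CPM in Mttp-IKO pools 1 to 3. Every Mttp-IKO pool lay below every control pool, with Mttp-IKO pool 3 the closest. The mean was 429 ± 38.1 CPM in controls and 135 ± 109 CPM in Mttp-IKO pools (SD, n = 3 each). The log2 fold change was -1.67 (SE 0.495), which did not pass the test over all genes (edgeR quasi-likelihood test, adjusted p = 0.0994).

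None of the 6 genes passed (0 of 6, adjusted p under 0.05 in edgeR's quasi-likelihood test), and 1, Mup20, had an unadjusted p under 0.05. Over all 17287 genes tested 694 passed, 4.01%, of which 159 were higher (0.92%) and 535 lower (3.09%) in Mttp-IKO pools. Mup20 was the 1 member whose pools did not overlap between genotypes. Such separation was common in this comparison, at 31% of all genes tested and 16.5% in the direction of lower values in Mttp-IKO pools. The DESeq2 Wald test called 1 member, Mup20 (adjusted p = 0.00608), and without Mttp-IKO pool 3 edgeR called 2, Mup20 and Mup3. Over all genes the DESeq2 test called 1995 of 17287, and edgeR without Mttp-IKO pool 3 called 864 of 17854.

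**Figure D1:**
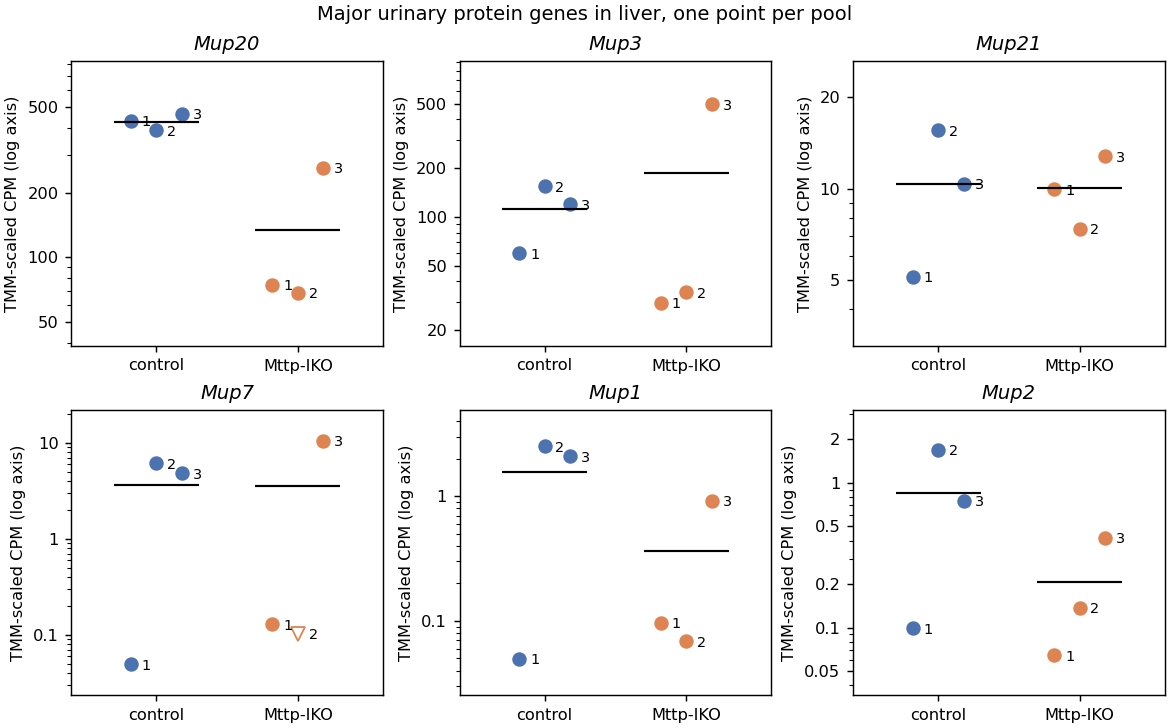
TMM-scaled CPM of each member (log axis), one point per pool, numbered, in control (blue) and Mttp-IKO (orange) livers, with a black line at the mean of 3 pools and an open triangle at the limit of 3 reads where a pool had 0 reads. For Mup20 the genotypes do not overlap, and in all 6 panels Mttp-IKO pool 3 is the highest Mttp-IKO pool.

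Mup3 was measured from sequence that is mostly its own, and its pools disagreed within the Mttp-IKO genotype. It was at 59.8, 154 and 120 CPM in control pools 1 to 3 and at 29.5, 34.2 and 497 CPM in Mttp-IKO pools 1 to 3. Mttp-IKO pools 1 and 2 were below all controls, and Mttp-IKO pool 3 was above all controls. The log2 fold change over all pools was 0.75 (SE 0.993, edgeR adjusted p = 0.689), a value that turned with the choice of pools. Without Mttp-IKO pool 3 it was -1.80 (SE 0.378, edgeR adjusted p = 0.0479), and for Mup20 the same change of samples gave -2.58 (SE 0.146, edgeR adjusted p = 0.00895). With limma-voom on all 6 pools the Mup3 value was -0.37 (adjusted p = 0.855).

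Mup21, the closest relative of Mup3 among the genes compared, was lower than Mup3 and Mup20 and was not called. It was at 5.13, 15.6 and 10.4 CPM in control pools 1 to 3 and at 9.96, 7.37 and 12.8 CPM in Mttp-IKO pools 1 to 3. All Mttp-IKO values lay within the range of the controls, of which control pool 1 was the lowest and control pool 2 the highest. The log2 fold change was -0.047 (SE 0.386, edgeR adjusted p = 0.958), and its sign turned with limma-voom (0.064) and without control pool 2 (0.35) or Mttp-IKO pool 2 (0.13).

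The 3 genes of the central array were detected with few reads. Mup7 was read 2, 221 and 154 times in control pools 1 to 3 and 4, 0 and 250 times in Mttp-IKO pools 1 to 3. Its level thus ran from 0.0496 to 6.13 CPM in controls and up to 10.5 CPM in Mttp-IKO pool 3, and the 0 in Mttp-IKO pool 2 allows up to 3 reads, or 0.103 CPM, as a limit of counting error only. The log2 fold change was -0.067 (SE 1.67, edgeR adjusted p = 0.986), and it was -5.71 (SE 1.94, adjusted p = 0.127) without Mttp-IKO pool 3. The pools within each genotype were further apart than the genotypes were.

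Mup1 was read 2, 91 and 67 times in control pools 1 to 3 and 3, 2 and 22 times in Mttp-IKO pools 1 to 3. Control pool 1 fell among the low Mttp-IKO pools, so the genotypes overlapped. The log2 fold change was -2.15 (SE 1.24, edgeR adjusted p = 0.336), and without Mttp-IKO pool 3 it was -4.16 (SE 1.51, adjusted p = 0.144). Mup2 was read 4, 61 and 24 times in control pools and 2, 4 and 10 times in Mttp-IKO pools. Here too control pool 1 was as low as the Mttp-IKO pools. The log2 fold change of Mup2 was -2.07 (SE 0.999, edgeR adjusted p = 0.262), and it was -1.07 (adjusted p = 0.612) without control pool 2.

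Per kilobase of gene length, the order in controls was Mup20 with a mean of 463 CPM per kb, Mup3 with 104, Mup21 with 15.3, Mup7 with 3.55, Mup1 with 0.982 and Mup2 with 0.634. The ranges over control pools of Mup20, Mup3, Mup21 and Mup7 did not touch each other, whereas those of Mup7, Mup1 and Mup2 overlapped. In Mttp-IKO pools Mup3 (175 CPM per kb) stood above Mup20 (145) by its mean, but their ranges overlapped and Mup20 was the higher of the pair in Mttp-IKO pools 1 and 2. Mup21 (14.8) and then Mup7 (3.43), Mup1 (0.229) and Mup2 (0.155) followed. These levels hold for uniquely aligned reads, which cover less of the 3 last genes than of the others.

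The make-up of the Mup reads shifted from pool to pool. All 48 Mup rows together gave 525, 622 and 655 CPM in control pools 1 to 3, and 123, 116 and 834 CPM in Mttp-IKO pools 1 to 3. Mttp-IKO pools 1 and 2 were thus the lowest and Mttp-IKO pool 3 the highest of the 6, and the genotypes overlapped. As unscaled CPM, the family total was 637 ± 53.6 in controls and 337 ± 390 in Mttp-IKO pools (SD, n = 3 each), a difference of -300.4, which was -525 without Mttp-IKO pool 3. The 6 members took 91.7 to 95.1% of the uniquely aligned Mup reads in every pool, so the other 42 rows took the small remainder. Reads that fit several copies were not counted, so the family total is a lower limit. Some other rows, such as Mup15 and Mup19, had no stretch of 50 bases of their own. These shares therefore need not be shares of the family's RNA.

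Mup20 took 82.2% of the Mup reads in control pool 1 (95% Wilson interval 81.7 to 82.7%), 62.7% in control pool 2 (62.1 to 63.3%) and 71.2% in control pool 3 (70.6 to 71.8%). It took 60.9% in Mttp-IKO pool 1 (59.3 to 62.4%), 59.0% in Mttp-IKO pool 2 (57.3 to 60.6%) and 31.3% in Mttp-IKO pool 3 (30.6 to 31.9%). All 3 Mttp-IKO pools were below the controls in this share. Mup3 took 11.4% (11.0 to 11.8%), 24.8% (24.2 to 25.4%) and 18.2% (17.7 to 18.8%) in control pools 1 to 3. In Mttp-IKO pools 1 to 3 it took 24.0% (22.7 to 25.4%), 29.6% (28.0 to 31.1%) and 59.5% (58.9 to 60.2%), so that it was the largest contributor in Mttp-IKO pool 3 alone. These intervals cover counting error only, and the shares were not tested.

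**Figure D2:**
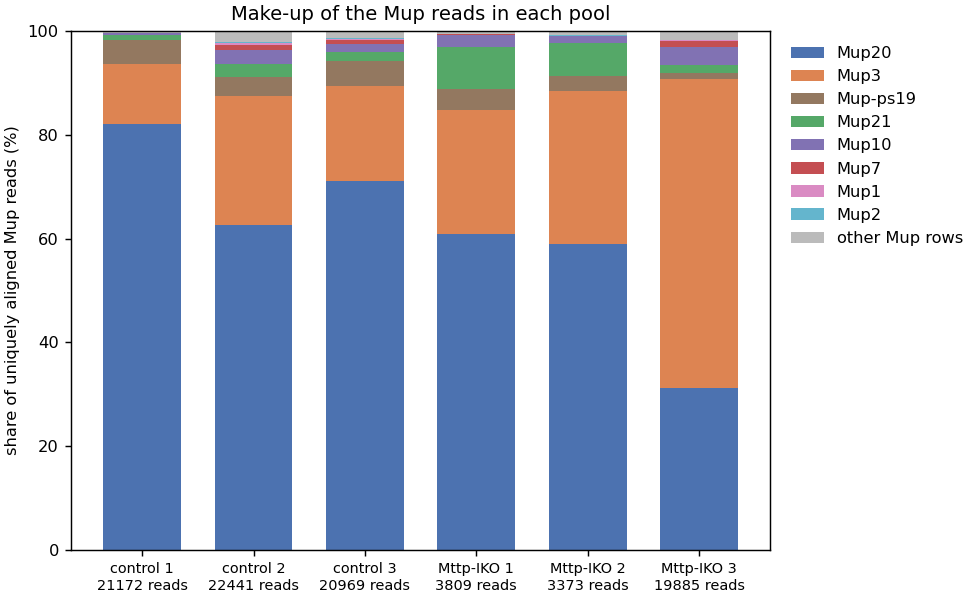
Share of the uniquely aligned Mup reads (%) taken by each Mup gene in each pool, with the number of Mup reads under each bar. Mup20 holds 59.0 to 82.2% in 5 pools and 31.3% in Mttp-IKO pool 3, where Mup3 holds 59.5%.

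A ratio of members within a pool does not depend on how pools are scaled, and it asks whether the members moved apart. It does not remove a difference between pools that depends on gene length. Mup21 (677 nt) is shorter than Mup20 (928 nt) and Mup3 (1068 nt), and the part of length in these ratios was not tested. Of 10 pairs among the 5 members with reads in every pool, 1 did not overlap between genotypes, Mup20 over Mup21. Its log2 ratio was 6.39, 4.64 and 5.48 in control pools 1 to 3 and 2.91, 3.21 and 4.35 in Mttp-IKO pools 1 to 3. The mean was 5.51 ± 0.873 in controls and 3.49 ± 0.761 in Mttp-IKO pools (SD, n = 3 each), a difference of -2.02. The exact two-sided permutation test gave p = 0.1, the smallest that 3 pools against 3 allow, and 0.5 after adjustment over the 10 pairs, so no pair could pass. Leaving out 1 pool at a time gave 1 to 6 pairs without overlap.

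Mup3 over Mup21 showed the pool dependence most plainly. The log2 ratio was 3.54, 3.31 and 3.52 in control pools 1 to 3, a spread of 0.129 (SD), although the level of each gene varied more than that between these pools. In Mttp-IKO pools 1 to 3 it was 1.56, 2.21 and 5.28, below all controls in the first 2 and above them in pool 3. The difference of the means was -0.44 (exact permutation p = 0.8, 0.889 after adjustment). Mup3 over Mup20 was -2.85, -1.34 and -1.96 in controls and between -1.34 and 0.93 in Mttp-IKO pools, with a difference of 1.58 (exact permutation p = 0.2, 0.5 after adjustment).

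**Figure D3:**
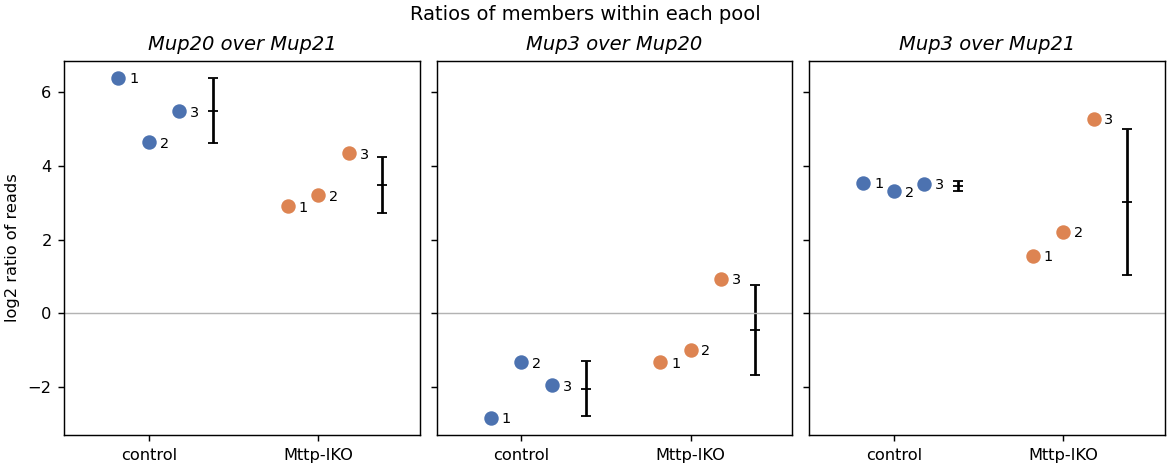
Log2 ratio of the reads of 2 members within each pool (points, numbered by pool; prior count 0.5) in control (blue) and Mttp-IKO (orange) livers, with mean and SD of 3 pools in black. Mup20 over Mup21 is lower in all Mttp-IKO pools, and Mup3 over Mup21 is near 3.5 in all controls but spans 1.56 to 5.28 in Mttp-IKO pools.

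Among the other 42 Mup rows, 15 are protein-coding and 27 are pseudogenes, 11 had no read in any pool, and 9 passed the low-count filter, with means of 0.366 to 16.3 CPM over the 6 pools. The most abundant was Mup-ps19, whose sequence overlaps that of Mup20. It was at 24.3, 23.3 and 32.1 CPM in controls and at 4.84, 3.33 and 9.90 CPM in Mttp-IKO pools, all below the controls. It fell by 2.15 on the log2 scale (SE 0.379, edgeR adjusted p = 0.0292) and was the 1 Mup row that passed. That call was lost with the length trend removed (adjusted p = 0.0653) and without either of control pools 1 and 3 or Mttp-IKO pools 1 and 2 (0.0818 to 0.103). Mup20 was 14.5 to 17.7 times as high as Mup-ps19 in controls and 15.5 to 26.3 times in Mttp-IKO pools.

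The next rows by level were the protein-coding Mup10, Mup11 and Mup12 and the pseudogene Mup-ps13. Mup10 was at 1.91, 15.9 and 10.6 CPM in controls and at 2.90, 1.44 and 28.5 CPM in the pools of Mttp-IKO mice, with a log2 fold change of 0.20 (edgeR adjusted p = 0.933). Mup11 (0.56, adjusted p = 0.851) and Mup12 (-0.77, adjusted p = 0.788) were likewise low in control pool 1 and in Mttp-IKO pools 1 and 2, and high in the other 3 pools. Mup-ps13 had a log2 fold change of -1.55 (edgeR adjusted p = 0.157).

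Most Mup rows shared their lowest control pool and their highest Mttp-IKO pool. Mttp-IKO pool 3 was the highest Mttp-IKO pool for all 15 tested Mup rows, 6 of 6 members included, against 40.9% of all genes tested. Control pool 1 was the lowest control for 13 of the 15 rows and for 5 of 6 members, Mup20 being the exception, against 36.8% of all genes. Mttp-IKO pool 3 was the highest of all 6 pools for 8 of the 15 rows, Mup3 and Mup7 among them, against 28.8% of all genes. These counts describe the pools as labelled and were not tested, and rows with shared sequence are not independent.

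**Figure D4:**
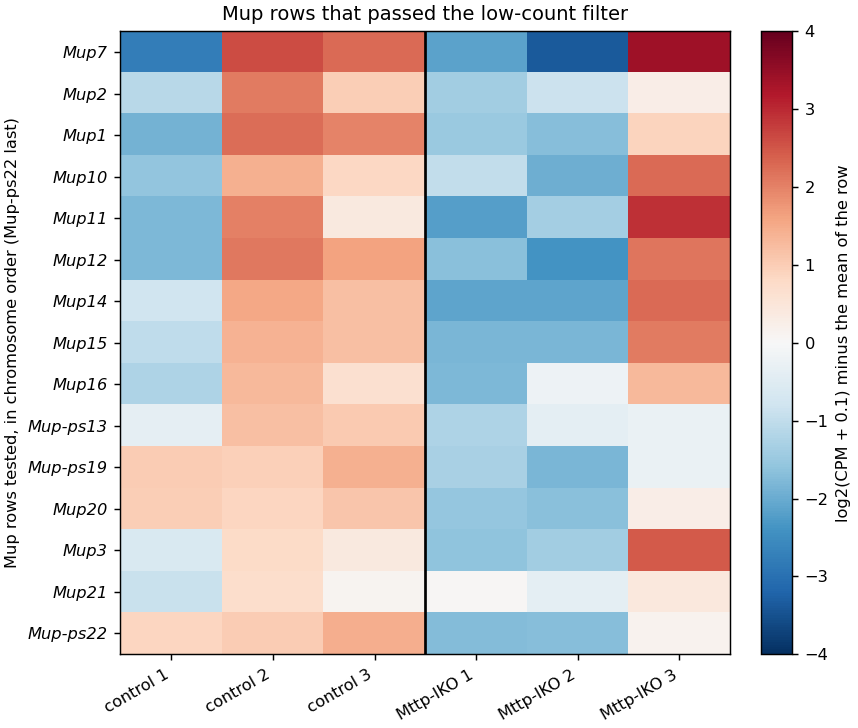
Log2(CPM + 0.1) minus the mean of its row (color) for the 15 Mup rows that passed the low-count filter, in chromosome order from top to bottom with Mup-ps22 last, in the 6 pools. The array genes from Mup7 to Mup16 are below their row mean in control pool 1 and in Mttp-IKO pools 1 and 2, while Mup-ps19, Mup20 and Mup-ps22 are above it in all 3 controls.

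The weight of Mttp-IKO pool 3 and of the test was followed for the 2 most abundant members. The Mup20 fold change stayed below 0 under every alternative, from -2.58 to -1.34, and the DESeq2 test, an unfiltered table and the omission of Mttp-IKO pool 3 each brought its adjusted p under 0.05. Removing each library's trend with gene length gave a Mup20 fold change of -1.34 (edgeR adjusted p = 0.177). Mttp-IKO pool 3 had a low share of reads on short genes, and the part of that share in these values was not tested.

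**Figure D5:**
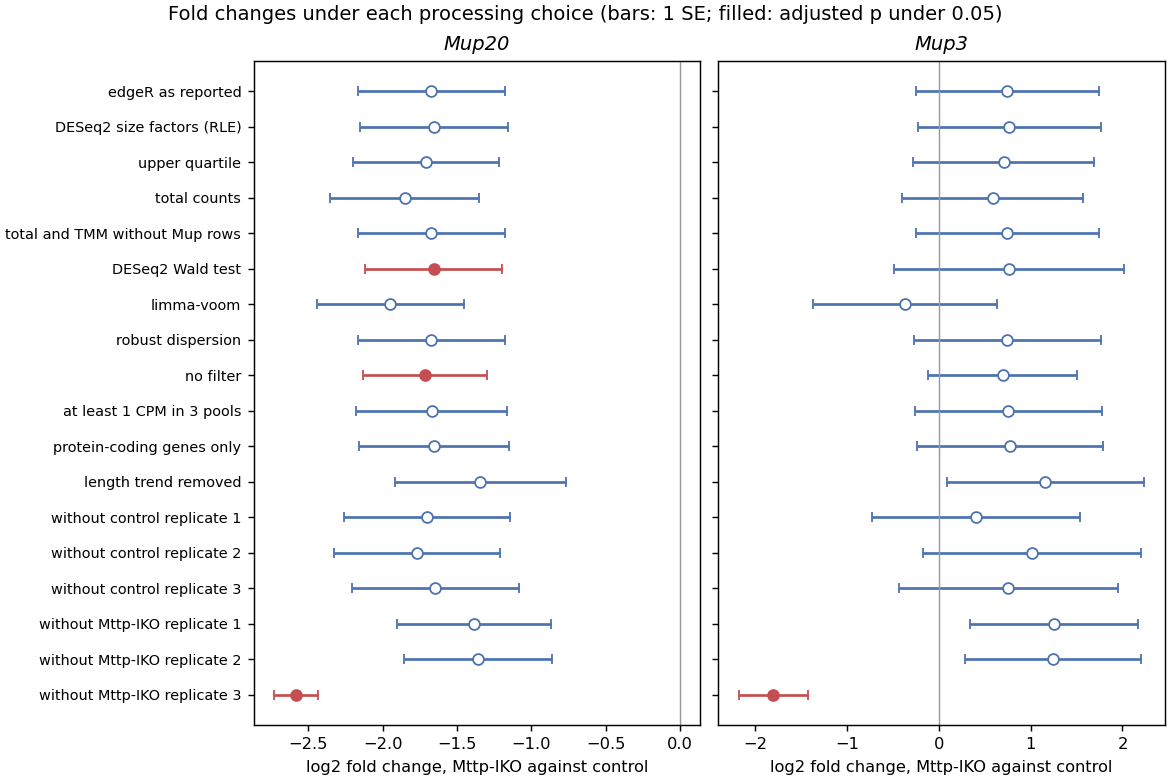
Log2 fold change of Mup20 and Mup3 (points; bars, 1 SE) under each processing choice fitted without replicate numbers, with filled red points for an adjusted p under 0.05. Mup20 is below 0 throughout, and Mup3 is above 0 except with limma-voom and without Mttp-IKO replicate 3.

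Promoter sequence was available for 4 members, Mup2, Mup3, Mup7 and Mup21, in RefSeq tables of GRCm38.p6. Bases -250 to -51 from the start of transcription are printed for Mup3 and Mup21, the closest relatives among the members at the far end of the cluster and the 2 that hold a searched motif, with capitals for the letters TGTTCT, part of a glucocorticoid receptor site.
Mup3 (chr4:62087368-62087567, minus strand): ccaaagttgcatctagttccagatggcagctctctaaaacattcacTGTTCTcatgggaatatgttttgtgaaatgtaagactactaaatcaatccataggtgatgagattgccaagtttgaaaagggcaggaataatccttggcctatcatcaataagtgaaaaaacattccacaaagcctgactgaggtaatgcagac
Mup21 (chr4:62150892-62151091, minus strand): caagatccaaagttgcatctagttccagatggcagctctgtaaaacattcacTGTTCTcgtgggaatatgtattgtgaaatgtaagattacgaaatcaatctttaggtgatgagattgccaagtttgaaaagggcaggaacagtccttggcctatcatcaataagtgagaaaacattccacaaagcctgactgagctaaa

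Over 250 bases the pair was 89.1% identical, with 16 substitutions. TGTTCT, searched on both strands, was found in 2 of the 4 members, at -204 in Mup3 and at -198 in Mup21, and in 16.1% of 32851 mouse promoters of the same length. The letters TTCNNNGAA, those of a STAT5 site and a palindrome, were in 0 of the 4 and in 7.02% of all promoters. A match is a run of letters and no match says only that the letters are not in these 250 bases.

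Each member's pattern over the 6 pools was set beside all tested genes with a mean of at least 1 CPM, by the root mean square difference of centred log2 CPM. Genes found this way resemble the member in the same pools by choice, so their fold changes are no separate support. The closest to Mup20 were the noncoding 9030616G12Rik (0.294), Bcl11a (0.305), which encodes a zinc finger repressor, and Hr (0.317), which encodes the corepressor hairless. Bcl11a fell by 2.33 on the log2 scale (edgeR adjusted p = 0.0327), and the values of 9030616G12Rik (-1.88, adjusted p = 0.0522) and Hr (-1.45, adjusted p = 0.0713) did not pass. The closest to Mup3 were Selenbp2 (0.306), itself a male-biased liver gene, Ppp1r3g (0.420), a glycogen-targeting subunit of protein phosphatase 1, and Sult2a8 (0.459), a sulfotransferase. Selenbp2 was at 13.6, 20.5 and 15.7 CPM in controls and at 3.87, 6.48 and 87.1 CPM in Mttp-IKO pools. By the way it was chosen it shared the Mup3 pattern, lowest in Mttp-IKO pools 1 and 2 and highest in Mttp-IKO pool 3.

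Mup21 was closest to Cdh13 (0.126), which encodes T-cadherin, and to the noncoding 1810008I18Rik (0.179) and Gm11342 (0.192). Mup2 was closest to the antisense Hectd2os (0.402), whose reads may include those of its partner gene, the transporter gene Slc22a7 (0.571) and Cyp8b1 (0.683), the sterol 12-hydroxylase of bile acid synthesis. Mup1 was closest to Naip6 (0.973) and Hectd2os (0.994), followed by the protease inhibitor gene Mug2. Mup7 had no near match, with Naip6 (1.14) and Adh6-ps1 (1.28) the closest with a symbol.

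Genes that share the sex-biased control of the Mup family were read from lists chosen with earlier results of these data known. Of 21 female-biased liver genes 19 were tested, with a median log2 fold change of 1.85 against 0.0057 over all genes. By sign 17 were above 0 and 2 below. In edgeR 6 were called higher and 1 lower, against 0.92% and 3.09% of all genes tested. Sult3a1, a sulfotransferase, had no read in the 3 controls and 0.612, 2.23 and 0.755 CPM in Mttp-IKO pools (edgeR adjusted p = 0.0298). It passed the low-count filter only through the Mttp-IKO pools, so its call cannot serve as support. The cytochromes P450 Cyp3a41a (log2 fold change 4.68, edgeR adjusted p = 0.0181) and Cyp3a41b (5.22, adjusted p = 0.0181) were higher in every Mttp-IKO pool. They are near-identical copies whose reads cannot be fully separated. Cyp3a41b had 2, 3 and 13 reads in controls and likewise met the filter through the Mttp-IKO pools. Cux2, a transcription factor of the female liver pattern, was at 4.36 to 7.43 CPM in controls and at 31.1 to 88.8 CPM in Mttp-IKO pools (3.29, SE 0.401, edgeR adjusted p = 0.0159). Atp6v0d2, a proton pump subunit, was the gene called lower (-1.50, edgeR adjusted p = 0.0499). Over the pathway lists together 8 of 92 genes tested passed, against 4.01% over all genes. Without control pool 1 or Mttp-IKO pool 2, 0 passed, and without control pool 3 or Mttp-IKO pool 1, 1 did. Without Mttp-IKO pool 3, 18 passed. Over all genes these omissions gave 24, 0, 21, 55 and 864 in the same order, against 694 with every pool.

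Of 20 male-biased liver genes 18 were tested, with a median log2 fold change of 0.42. By sign 14 were above 0 and 4 below, and in edgeR 1 was called higher (0.92% over all genes) and 0 lower. The 1 was Cyp2d9, a steroid 16-alpha-hydroxylase, at 133, 237 and 176 CPM in controls and 414, 376 and 422 CPM in Mttp-IKO pools (1.15, SE 0.231, edgeR adjusted p = 0.0389). Cyp2f2 (0.32, adjusted p = 0.663) and Gstp1 (-0.36, adjusted p = 0.541) were the most abundant of the list and did not pass. Slco1a1, an organic anion transporter chosen after its values were seen, was at 6.27, 39.3 and 20.4 CPM in controls and at 7.25, 15.1 and 113 CPM in Mttp-IKO pools, high in Mttp-IKO pool 3 as Mup3 was. A fold change above 0 in this list thus need not describe every pool. Unlike Cyp2d9, Cyp4a12a (0.52) and Cyp7b1 (0.19) lay below all controls in Mttp-IKO pools 1 and 2 and above them in Mttp-IKO pool 3. Cyp4a12a was at 8.59 to 15.1 CPM in controls and at 0.193, 0.446 and 54.3 CPM in Mttp-IKO pools.

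The genes of growth hormone signalling, all 14 of them tested, held 0 past the threshold in edgeR, with a median log2 fold change of 0.013. Igf1, the main growth factor made in response to the hormone, was at 359, 445 and 444 CPM in controls and at 413, 588 and 863 CPM in Mttp-IKO pools (0.58, edgeR adjusted p = 0.258). Ghr, the receptor, was at 132, 216 and 173 CPM and at 94.3, 112 and 262 CPM (-0.15, adjusted p = 0.848). Of 18 transcription factors that act on Mup or other liver promoters 0 passed, with a median log2 fold change of 0.41. The most abundant were Hnf4a (0.87, edgeR adjusted p = 0.0664), a hepatocyte nuclear receptor, and Rxra (0.35, adjusted p = 0.349), also a nuclear receptor.

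Hepatocytes make these proteins, and their markers summed to 66031 to 102517 CPM in controls and 130165 to 177627 CPM in Mttp-IKO pools. Most of that sum was Alb, at 40131 to 69006 CPM in controls and 84786 to 132236 CPM in Mttp-IKO pools. Of these markers 10 of 10 were tested, 9 had a fold change above 0 and 0 passed in edgeR. The 1 below 0 was Ttr, lower in every Mttp-IKO pool than in every control (-0.55, edgeR adjusted p = 0.290). Of the 10 stellate cell and fibroblast markers 7 were called lower and 0 higher in edgeR, against 3.09% and 0.92% of all genes tested. The sum of these markers was 949 to 1755 CPM in controls and 486 to 536 CPM in Mttp-IKO pools. Of 10 macrophage markers 1 was called higher and 2 lower, while by sign 3 were above 0 and 7 below. Salivary and lacrimal glands also make Mup proteins, and of their 9 markers 4, Prol1, Smr2, Smgc and Dcpp1, were at 0 in every pool. The sum of the 9 was 86.6 to 113 CPM in controls and 85.1 to 154 CPM in Mttp-IKO pools, most of it Amy1, an amylase gene, at 83.2 to 149 CPM over the 6 pools, with Bhlha15 at 1.55 to 12.8 CPM. In RNA from whole liver, fewer cells of a type and less RNA per cell cannot be told apart, and the part of cell makeup in the Mup values was not tested.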

How the data were processed

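Liver RNA of 3 control and 3 Mttp-IKO pools was sequenced after ribosomal RNA depletion, and samples were grouped by their titles. The authors deposited raw counts per gene, the number of uniquely aligned, unambiguous reads given by featureCounts 1.4.6-p5 of Subread after alignment with STAR 2.5.1a to GRCm38 (Ensembl release 76), without normalization. The deposited files of single pools also hold CPM and RPKM computed by the authors from these counts, which were not used. Whether strand was used in counting is not stated, and reads that fit several copies were not counted. The table of all pools held 276 repeated lines, which were dropped, and its counts equal those of the single files.

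Genes were kept by filterByExpr (minimum count 10, minimum total 15), scaled by TMM (factors 0.898 to 1.11) and compared with the quasi-likelihood test of edgeR 4.0.16 in R 4.3.3 (functions glmQLFit, glmQLFTest), adjusting by Benjamini-Hochberg over 17287 genes, with a threshold of 0.05. The SE is the fold change divided by the square root of F, and a positive fold change is higher in Mttp-IKO pools. The methods name no tool for differential expression. Totals were 25271585 to 36238734 reads, so that 3 reads are 0.0744 to 0.126 CPM after TMM scaling. No pair of pools of 1 genotype was alike within sampling noise. Tests were run on simulated counts that had the same dispersion for every gene and no pool set apart. That check does not cover data with a pool such as Mttp-IKO pool 3. Ratios of members used a prior count of 0.5.

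The alternatives tried were scaling by upper quartile, by DESeq2's size factors, by total counts and by TMM without Mup rows, the tests of DESeq2 1.42.0 and limma-voom (3.58.1), robust dispersion, no filter or 1 CPM in 3 pools, only protein-coding genes, a replicate block, removal of a loess trend with gene length (span 0.3) alone and with the block, a threshold of 0.1 and leaving out each pool. Coding sequences (GENCODE M21, GRCm38; the complete one closest in length to that of Mup20) were aligned with Biopython 1.88. The members and all gene lists (male-biased, female-biased, growth hormone, transcription factors, other lipocalins, secreted proteins and cell markers) were chosen with earlier results of these data known. The genes named are the members, the 5 most abundant other Mup rows, up to 4 genes past the threshold with the largest change in each pathway list (or, with fewer than 2 past it, the 2 most abundant) and the 3 genes nearest in pattern to each member; genes named beyond these, which include marker genes, were chosen after their values were seen.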

Additional observations from a re-analysis of the deposited data

How the results depend on the processing

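The number of members past the threshold was 0 under edgeR and 1 with the DESeq2 Wald test, with no filter, with the replicate block and at an adjusted p of 0.1, each time Mup20. Its log2 fold change was -1.66 (adjusted p = 0.00608), -1.72 (0.0444), -1.97 (0.0443) and -1.67 (0.0994) in that order. Leaving out 1 pool gave 0 to 2 members, and fold changes of -2.58 to -1.36 for Mup20, -1.80 to 1.25 for Mup3, -5.71 to 0.53 for Mup7, -0.40 to 0.35 for Mup21, -4.16 to -1.62 for Mup1 and -3.03 to -1.07 for Mup2. Mup3 turned to -0.37 with limma-voom, -0.48 with the replicate block and -0.32 with the length trend removed and the block. Mup21 turned to 0.064 with limma-voom, 0.063 with the block, 0.23 with the length trend removed and 0.31 with the block added. Mup7 turned to 0.36 with the length trend removed. Why these values turned was not tested.

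Over all genes, 694 passed, and 1995 did with DESeq2, 428 with limma-voom, 990 of 27802 with no filter and 1658 at an adjusted p of 0.1. Leaving out 1 pool gave 0 to 892 (24 without control pool 1, 21 without control pool 3, 55 without Mttp-IKO pool 1, and 0 without Mttp-IKO pool 2, where 3221 had an unadjusted p under 0.05). Genes of the pathway lists past the threshold numbered 8, and 23 with DESeq2, 14 with the length trend removed and the block, 17 at an adjusted p of 0.1 and 0 to 18 when 1 pool was left out. Of 8 genes named as called, Mup-ps19 among them, each kept its direction under all alternatives run and lost its call under 3 to 10 of them. Pairs of members without overlap numbered 1, 2 with a prior count of 5, and 1 to 6 when 1 pool was left out (6 without control pool 1, 4 without Mttp-IKO pool 3). The family total difference was -525 to -184 CPM when 1 pool was left out. Scaling by total counts moved the median fold change of all genes by -0.18, and removing the length trend moved it by 0.12.

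Control and Mttp-IKO pools with the same number correlated at 0.133, 0.104 and 0.0067 in their deviations. Mttp-IKO pool 3 correlated more with control pool 2 (0.023) than with control pool 3, and the numbers were not taken to pair the pools. With the replicate block 592 genes passed. Mup7, Mup1 and Mup2 had 2 to 4 reads or none in 3 of 6 pools, the deepest pool among them, so their fold changes rest on few reads.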

Other observations

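Other lipocalins, the family of carrier proteins to which the major urinary proteins belong, ranged widely in the same pools. Their means over the 6 pools ran from 0.130 CPM for Obp2a to 2275 CPM for Rbp4. Of 12 on the list 9 were tested and 0 passed in edgeR, with a median log2 fold change of 0.28. By sign 6 were above 0 and 3 below, among them Orm2, lower in every Mttp-IKO pool than in every control (-1.43, edgeR adjusted p = 0.0945). Rbp4, the plasma carrier of retinol, was at 1587, 2371 and 2012 CPM in controls and at 2963, 3068 and 1648 CPM in Mttp-IKO pools (0.36, adjusted p = 0.495). Ambp, the precursor of alpha-1-microglobulin, was at 1144, 1241 and 1142 CPM in controls and at 1430, 1412 and 866 CPM in Mttp-IKO pools (0.072, adjusted p = 0.884). Both were lowest among Mttp-IKO pools in pool 3, where Mup3 was highest.

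Of 16 abundant secreted hepatocyte proteins all 16 were tested and 0 passed in edgeR, with a median log2 fold change of 0.47. Alb, which encodes albumin, was at 40131, 69006 and 53314 CPM in controls and at 97241, 132236 and 84786 CPM in Mttp-IKO pools (0.95, adjusted p = 0.157). Apob, the scaffold of liver lipoproteins, was at 10955, 11609 and 10842 CPM in controls and at 11781, 13766 and 19674 CPM in Mttp-IKO pools (0.44, adjusted p = 0.373). Of the 16, 10 had a fold change above 0 and 6 below 0, the sign of Mup20, and none of these differences from Mup20 was tested.

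Endothelial markers (8 of 8 tested), cholangiocyte markers (6 of 6) and lymphocyte and neutrophil markers (7 of 9) had 0 past the threshold in edgeR, and striated muscle (2 of 8 tested) and gland markers (2 of 9) likewise. The summed endothelial level was 445 to 512 CPM in controls and 447 to 492 CPM in Mttp-IKO pools.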
